A study of Homo sapiens with 24 samples.

Results

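The 10 genes described here encode secreted signals, most of which recruit or sustain neutrophils and monocytes. They are the CXC chemokines CXCL1, CXCL2, CXCL3, CXCL5, CXCL6 and CXCL8, the CC chemokines CCL2 and CCL20, and the colony-stimulating factors CSF2 (GM-CSF) and CSF3 (G-CSF). They were chosen by symbol, and each matched 1 of the 58381 gene IDs in the count table. All 10 passed the filter on low counts, which kept 20820 genes. Their messenger RNA was read from sequenced libraries of 4 bladder cancer lines, namely 5637, T24, CLS-439 and TCC-SUP. Responses to mitomycin C (MMC), a DNA-crosslinking drug given into the bladder of patients, were compared with untreated cells of the same line. The dose was 75 µM for 1 h, with cells harvested 15 h later. Each of the 8 groups holds 3 libraries, numbered 1, 3 and 4, which the series calls biological replicates. Nothing in the labels says how the cultures were separated, so p-values measure the spread between these libraries only. The labels describe cultures of each line alone, with no leukocytes or stroma added. The treated samples carry the tag MCC, taken here for MMC, the only drug that the protocol names.

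Neutrophils carry the receptors CXCR1 and CXCR2, which bind the CXC chemokines with an ELR motif, the group to which all 6 CXC genes belong. CXCL8, also called interleukin 8, is the best known of them. CCL2 attracts monocytes through CCR2, and CCL20 attracts CCR6-bearing lymphocytes and dendritic cells. CSF2 and CSF3 drive the production and survival of granulocytes, and CSF2 also that of macrophages. In epithelial cells these genes are classic targets of NF-kB, a family of transcription factors switched on by cytokines, microbial products and DNA damage. Their messengers are short-lived because AU-rich elements in the 3′ UTR recruit decay factors.

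The 6 CXC genes lie together on chromosome 4, and 5 of the 6 share an 11-base stretch at nearly the same place before their start that holds a kappa B site, the sequence NF-kB binds. The promoters below are shown because these genes form the largest group of members. Of them 5 were called higher in T24 (15.2% of all genes) and 6 in 5637 (15.9%). They come from RefSeq (GRCh38.p14), run 5′ to 3′ on the gene's own strand and end at the last base before the RefSeq start. Capitals mark GGGAATTTCCC, the longest stretch common to the 250 bases before the start of those 5 genes, or GGAATTTCC in CXCL8.
CXCL8, chr4:73740459-73740568, plus strand: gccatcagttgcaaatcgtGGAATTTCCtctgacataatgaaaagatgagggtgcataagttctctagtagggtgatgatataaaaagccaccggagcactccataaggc
CXCL6, chr4:73836568-73836677, plus strand: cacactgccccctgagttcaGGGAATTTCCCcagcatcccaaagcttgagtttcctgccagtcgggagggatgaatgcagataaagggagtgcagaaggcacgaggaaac
CXCL1, chr4:73869283-73869392, plus strand: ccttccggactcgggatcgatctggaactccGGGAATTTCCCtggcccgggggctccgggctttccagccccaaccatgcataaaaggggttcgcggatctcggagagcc
CXCL5, chr4:73998678-73998787, minus strand: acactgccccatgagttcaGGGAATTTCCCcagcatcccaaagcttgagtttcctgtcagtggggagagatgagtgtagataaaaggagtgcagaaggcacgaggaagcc
CXCL3, chr4:74038690-74038799, minus strand: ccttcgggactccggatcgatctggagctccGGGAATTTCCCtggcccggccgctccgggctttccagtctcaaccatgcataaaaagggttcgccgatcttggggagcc
CXCL2, chr4:74099196-74099305, minus strand: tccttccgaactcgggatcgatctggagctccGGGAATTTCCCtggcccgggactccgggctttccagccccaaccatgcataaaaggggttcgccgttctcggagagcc

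Promoters of 8 members were in the RefSeq table, and the 250 bases before each start were searched on both strands. GGGAATTTCCC was taken from 5 of the 8, and 0.0769% of 35116 promoters hold it. GGAATTTCC, which lies inside it, was found in 6 of the 8 and in 0.413% of promoters. In CXCL1, CXCL2 and CXCL3 the longer sequence began 79, 78 and 79 bases before the start. In CXCL5 and CXCL6 it began 91 and 90 bases before it, and in CXCL8 the shorter form began 91 bases before. The degenerate NF-kB consensus was found in 6 of the 8 (5.21% of promoters), which includes CCL20 on its minus strand but not CXCL8. The other 5 hold this consensus, and also GGAATTTCC, because they hold GGGAATTTCCC, which was taken from them. Neither count is therefore an independent comparison with the share of promoters. The AP-1 sequence TGANTCA was found in CXCL8 alone among the 8, at bases -137 to -131, against 6.57% of promoters. A match describes these letters and is not evidence of binding. Starts differ between annotations, and the GENCODE models of all 6 CXC genes but CXCL1 begin upstream of the RefSeq start, inside the printed stretch or before it.

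The 3′ UTRs of all 10 genes held the pentamer ATTTA, the core of an AU-rich element, more densely than the median protein-coding gene. The members' median was 7.14 copies per kb, against 1.52 over 18508 genes. The heptamer TATTTAT was present in 8 of the 10, CCL2 and CXCL6 being without it, and in 30.9% of all genes. A run of 3 or more ATTTA copies that share their end bases was found in CXCL1, CXCL2 and CSF2, and in 0.821% of genes. The run of CSF2 is shown, in capitals throughout, because the element was first described in that messenger.
CSF2: ATTTATTTATTTATTTATTTA

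Library totals lay between 19384501 and 28821665 counted reads in T24, 5637 and TCC-SUP and between 13791428 and 20863429 in CLS-439. CLS-439 stood apart from the other lines. Mitochondrial genes held 0.0238 to 0.0283% of its reads against 3.21 to 7.40% elsewhere, and processed pseudogenes 2.75 to 3.05% against 0.143 to 0.229%. Values of this line are therefore reported as those of the libraries labelled CLS-439. Epithelial markers were present in every group (summed level 1146 to 7928 CPM), while 1 or 2 of 10 leukocyte markers reached 1 CPM in any group. The leukocyte markers summed to 0.981 to 2.44 CPM in T24 and 5637, to between 18 and 42.5 CPM in TCC-SUP and to 9.92 to 12.8 CPM in CLS-439. The 6 fibroblast markers all reached 1 CPM in TCC-SUP, with sums of 4166 to 11517 CPM. In CLS-439, 2 of them did, with sums of 984 to 1867 CPM. Their sums were 25.5 to 74.0 CPM in 5637 and 2.11 to 7.42 CPM in T24.

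Levels are given as CPM, counts scaled to a common library size with TMM factors, or as CPM per kb of exons where genes are compared with each other. Changes are log2 fold changes of treated over untreated with their standard error (SE), and a gene was called where edgeR's quasi-likelihood test gave a p under 0.05 after Benjamini-Hochberg adjustment over all 20820 genes. Bulk levels cannot tell fewer expressing cells from less RNA per cell.

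Untreated 5637 was the main source of these messengers. CXCL1, CXCL5, CXCL6, CCL20 and CSF3 passed the filter on low counts only through libraries of T24 or 5637. The filter thus favoured members that are high in those lines, and few counts elsewhere limit what could be called. Of the 10 genes, 9 were higher in untreated 5637 than in untreated TCC-SUP and 1, CCL2, was lower, where 56.6% of all genes differed. The same 9 and 1 were counted against the libraries labelled CLS-439 (73.7% of all genes differed). Against untreated T24, 8 members were higher in 5637, CCL2 was lower, and CXCL1 was not called (46.6% of all genes differed). T24 and TCC-SUP differed in 7 members, all higher in T24 (51.3% of all genes differed). T24 and the libraries labelled CLS-439 also differed in 7, all higher in T24, which is near the share of all genes (72.3%). The shares given for untreated lines count genes called in either direction. TCC-SUP and the libraries labelled CLS-439 differed in 5, of which 2 were higher in TCC-SUP (77% of all genes). In untreated 5637, CSF3, the granulocyte growth factor, stood at 244 ± 107 CPM per kb (SD, n = 3) and CXCL1 at 223 ± 49.4. CSF3 was the higher of the pair in replicate 1 (368 against 279 CPM per kb), and CXCL1 in replicates 3 and 4 (184 against 183, and 206 against 182). CXCL8 followed at 154 ± 25.7 CPM per kb and CSF2 at 67.8 ± 18.5.

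In untreated T24 the order was different. CXCL1 led at 178 ± 9.11 CPM per kb (SD, n = 3), CXCL8 stood at 82.1 ± 12.1 and CXCL5 at 19.9 ± 11.5. CSF2 and CCL20 were close to absent there, with 0.269 and 0.0511 CPM per kb. In TCC-SUP and in the libraries labelled CLS-439 no member reached 6 CPM in any library. All members together took 0.000268 to 0.00114% of the reads of TCC-SUP and 0.119 to 0.897% of those of 5637. CXCL2 was the highest member per length in the libraries labelled CLS-439 (3.32 ± 0.242 CPM per kb untreated), and its CPM there overlapped that of untreated T24. In untreated TCC-SUP, CSF2 (1.04 ± 1.02 CPM per kb) and CCL2 (0.768 ± 0.0324) led.

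**Figure D1:**
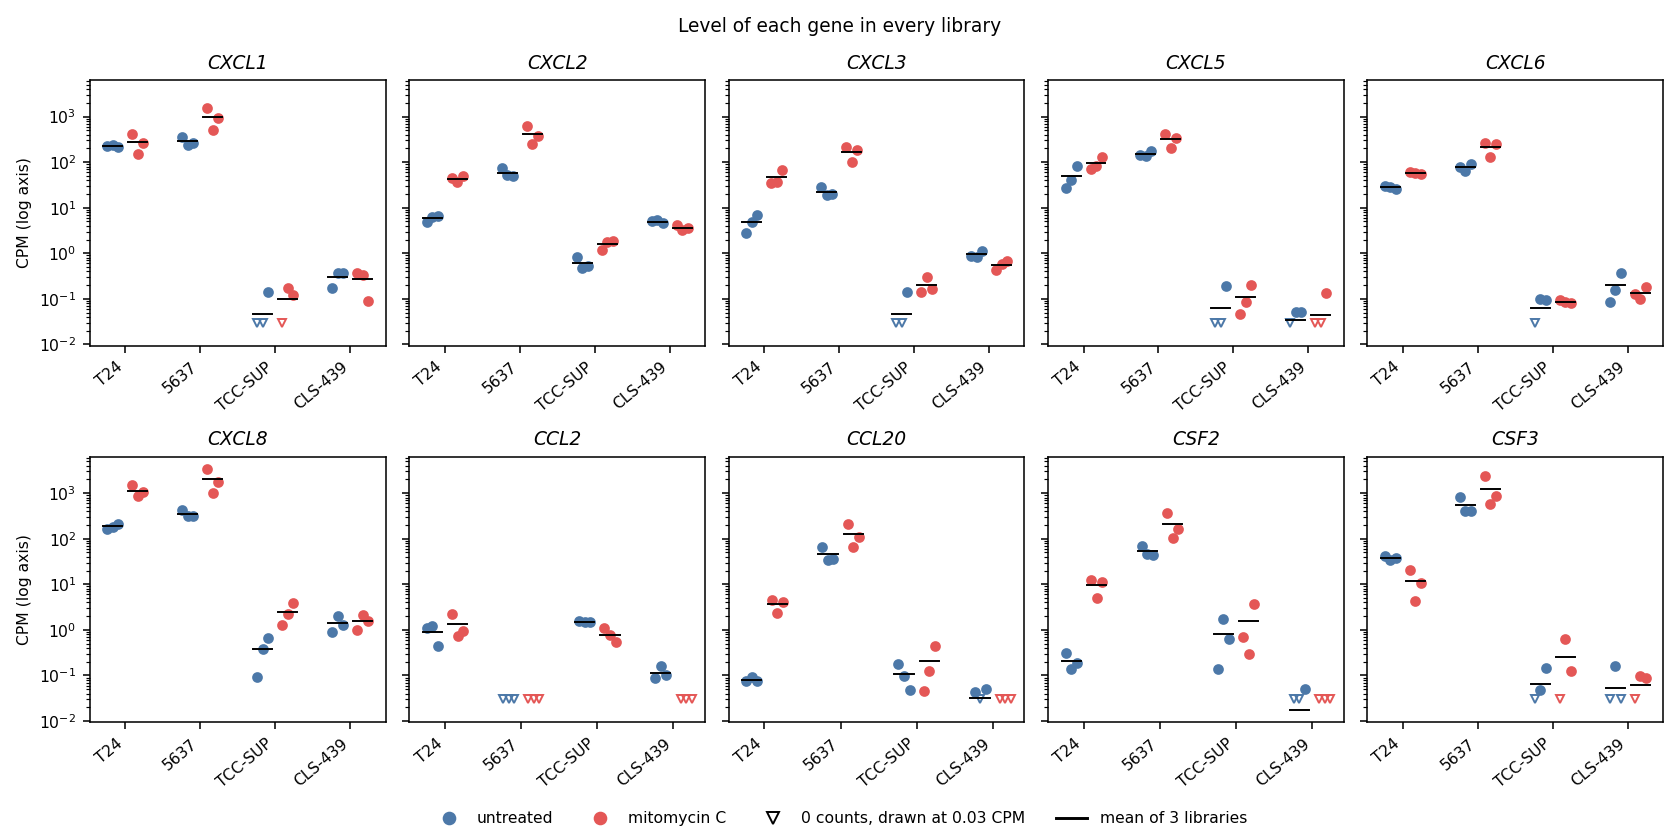
CPM on a log axis of each of the 10 genes in every library of the 4 lines, untreated (blue) or treated with mitomycin C (red), with bars for the mean of 3 libraries and open triangles for libraries with 0 counts. Most members are highest in 5637, CCL2 has no count there, and CSF3 is lower in treated than in untreated T24.

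MMC raised 7 of the 10 members in T24, where 15.2% of all genes were called higher, and lowered 1, where 13.4% were called lower. In 5637 it raised 8 (15.9% of all genes) and lowered 0 (13.6% of all genes, and 0 members at an unadjusted p under 0.05). In TCC-SUP 2 rose (9.57% of all genes) and 0 fell (11.1%, with 1 at an unadjusted p under 0.05). In the libraries labelled CLS-439 edgeR called 0 members higher (0.298% of all genes) and 0 lower (0.322%), with 0 and 1 at an unadjusted p under 0.05. DESeq2 likewise called 0 in CLS-439. The median log2 fold change over the 10 members was 1.82 for T24, 1.64 for 5637, 1.00 for TCC-SUP and -0.48 for the libraries labelled CLS-439, against a median of 0 over all genes in each line. In 5637 CCL2 had 0 counts and entered the median as 0. For TCC-SUP and CLS-439 the median takes in members near the count floor. Examples are CXCL1 in TCC-SUP (3 untreated and 7 treated counts, SE 1.64) and CCL2 (7 and 0) and CCL20 (2 and 0) in CLS-439. Those medians therefore do not measure a shift of the set. The members whose treated libraries all lay above the untreated ones numbered 6 in T24 (18% of all genes), 7 in 5637 (20.7%) and 2 in TCC-SUP (18.5%). Those whose treated libraries all lay below numbered 1 in T24 (16.6%), 1 in TCC-SUP (19.2%) and 3 in the libraries labelled CLS-439 (11%).

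**Figure D2:**
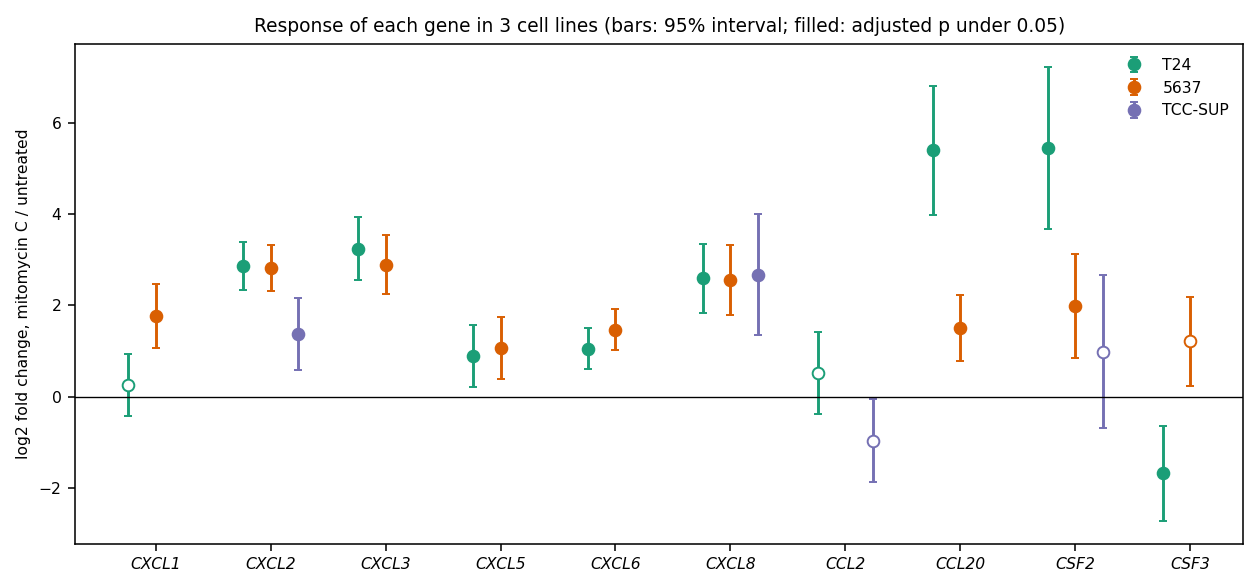
Log2 fold change after mitomycin C in T24, 5637 and TCC-SUP of each gene with 30 or more counts in the line, with 95% intervals. Points are filled where the edgeR adjusted p is under 0.05. CXCL1, CXCL3, CXCL5, CXCL6, CCL20 and CSF3 had too few counts to be drawn in TCC-SUP, as had CCL2 in 5637. CXCL2, CXCL3 and CXCL8 lie between 2.55 and 3.24 in T24 and 5637, whereas CCL20 lies at 5.39 and 1.51 and CSF3 at -1.67 and 1.21.

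CXCL8 (chromosome 4, 73740506 to 73743716, plus strand) had the highest CPM per kb of the chemokine genes in treated T24 (495 ± 146) and treated 5637 (902 ± 540; SD, n = 3). In T24 its untreated libraries held 161, 184 and 215 CPM and its treated ones 1492, 846 and 1040. Every treated library exceeded every untreated one (log2 2.59, SE 0.36, adjusted p = 1.407e-05). In 5637 it went from 417, 319 and 314 CPM to 3398, 993 and 1762, again without overlap and with replicate 1 highest in both groups (log2 2.55, SE 0.36, adjusted p = 1.408e-05). CXCL8 also rose in TCC-SUP, from a far lower level, with 2, 8 and 14 untreated and 27, 52 and 93 treated counts (log2 2.67, SE 0.62, adjusted p = 0.00396). That call was lost when replicate 4 was left out of all groups (adjusted p = 0.0983). The libraries labelled CLS-439 held 0.906 to 1.99 CPM untreated and 1.00 to 2.14 treated, overlapping ranges (log2 0.23, 95% interval -0.91 to 1.37).

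CXCL2 (chromosome 4, 74097035 to 74099293) and CXCL3 (chromosome 4, 74036589 to 74038807), neighbouring genes on the minus strand, had the highest CXC fold changes in both T24 and 5637. CXCL2 in T24 went from 4.96, 6.26 and 6.72 CPM to 43.9, 36.3 and 49.7 (log2 2.85, SE 0.25, adjusted p = 1.056e-08). In 5637 it went from 74.2, 53.0 and 49.5 CPM to 617, 252 and 379 (log2 2.82, SE 0.24, adjusted p = 7.834e-09). The untreated and treated libraries were far apart in both lines, and the rise was about 7-fold in each (7.23 and 7.06). CXCL3 rose from 2.83, 4.94 and 6.90 to 35.3, 37.4 and 66.4 CPM in T24 (log2 3.24, SE 0.32, adjusted p = 9.554e-08). In 5637 it rose from 27.9, 19.3 and 19.5 to 213, 101 and 181 CPM (log2 2.89, SE 0.31, adjusted p = 2.418e-07). The highest untreated CXCL3 library lay below the lowest treated one in each of these lines.

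CXCL2 was also called in TCC-SUP, where untreated libraries held 18, 10 and 11 counts and treated ones 25, 42 and 45 (log2 1.38, SE 0.37, adjusted p = 0.00939). The groups did not overlap. The call was lost without untreated replicate 3 (adjusted p = 0.0524) or treated replicate 3 (0.0542). It was also lost when replicate 3 (0.109) or replicate 4 (0.215) was left out of all groups. CXCL3 there rested on 3 untreated and 14 treated counts in all, a rate ratio of 4.26 (95% counting interval 1.19 to 23.1), and was not called (adjusted p = 0.214). In the libraries labelled CLS-439, CXCL2 read 5.05, 5.30 and 4.58 CPM untreated and 4.12, 3.31 and 3.57 treated. The treated values were lower without overlap, yet the difference was not called (log2 -0.45, SE 0.27, adjusted p = 0.776).

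CXCL1 (chromosome 4, 73869393 to 73871242, plus strand), the most abundant CXC messenger of untreated T24, was the CXC gene that was not called in that line. Its untreated T24 libraries held 230, 242 and 218 CPM and its treated ones 413, 150 and 260, so that treated values lay on both sides (log2 0.25, 95% interval -0.43 to 0.94, adjusted p = 0.623). In 5637 CXCL1 rose from 361, 239 and 267 to 1536, 510 and 906 CPM without overlap (log2 1.77, SE 0.33, adjusted p = 3.299e-04). The difference between the lines' responses, T24 minus 5637, was -1.51 (SE 0.46) and was not called (adjusted p = 0.0693). It was called without treated T24 replicate 1 (-1.91, adjusted p = 0.0189) or treated 5637 replicate 3 (-1.83, adjusted p = 0.0134).

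CXCL5 (chromosome 4, 73995642 to 73998779) and CXCL6 (chromosome 4, 73836497 to 73849064) are a second pair of close copies and made smaller responses. CXCL6 in T24 held 29.2, 27.9 and 26.2 CPM untreated and 59.6, 57.8 and 55.3 treated (log2 1.05, SE 0.21, adjusted p = 5.578e-04), a call lost without replicate 4 of all groups (adjusted p = 0.0544). In 5637 it went from 78, 63.2 and 90.3 to 260, 127 and 253 CPM (log2 1.47, SE 0.21, adjusted p = 1.163e-05). No treated CXCL6 library overlapped an untreated one in either line. CXCL5 in T24 varied more, with 27.4, 40.8 and 83.4 CPM untreated and 72.2, 81.5 and 127 treated. These groups overlapped, and the rise (log2 0.89, SE 0.32, adjusted p = 0.0415) was lost under DESeq2 (adjusted p = 0.0502), in a fit on T24 alone (0.162) and without the CLS-439 libraries (0.0618). It was also lost without untreated replicate 1 (log2 0.57, adjusted p = 0.240), untreated replicate 3 (0.178), treated replicate 3 (0.0671) or treated replicate 4 (log2 0.60, adjusted p = 0.238). In 5637 CXCL5 rose from 143, 139 and 172 to 412, 208 and 333 CPM without overlap (log2 1.07, SE 0.32, adjusted p = 0.0139). That call was lost without untreated replicate 1 (0.0614), treated replicate 1 (0.0690) or untreated replicate 3 (0.0708). It was also lost when replicate 1 (0.103) or replicate 3 (0.0508) was left out of all groups.

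The 6 CXC genes span 359 kb between the starts of CXCL8 and CXCL2. From the CXCL8 start, CXCL6 begins at 96.0 kb, CXCL1 at 129 kb, CXCL5 at 258 kb, CXCL3 at 298 kb and CXCL2 at 359 kb. The responses did not follow the distance: the genes at both ends and CXCL3 rose most, and those between had smaller fold changes in both lines. Copies that resemble each other differed, since CXCL1 shares 93.5% of its coding bases with CXCL2 and 90.7% with CXCL3. CXCL2 and CXCL3 share 94.4%, and CXCL5 and CXCL6 share 87.5%. Sequences of 50 bases that occur in both members of a pair were found for CXCL1 with CXCL2 (60), CXCL2 with CXCL3 (54) and CXCL1 with CXCL3 (6), and for no other pair of the 6. The sources used here do not say how reads from such stretches were counted, so the split of reads among CXCL1, CXCL2 and CXCL3 is uncertain. Those 60 stretches are 5.73% of CXCL1's and 5.13% of CXCL2's.

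**Figure D3:**
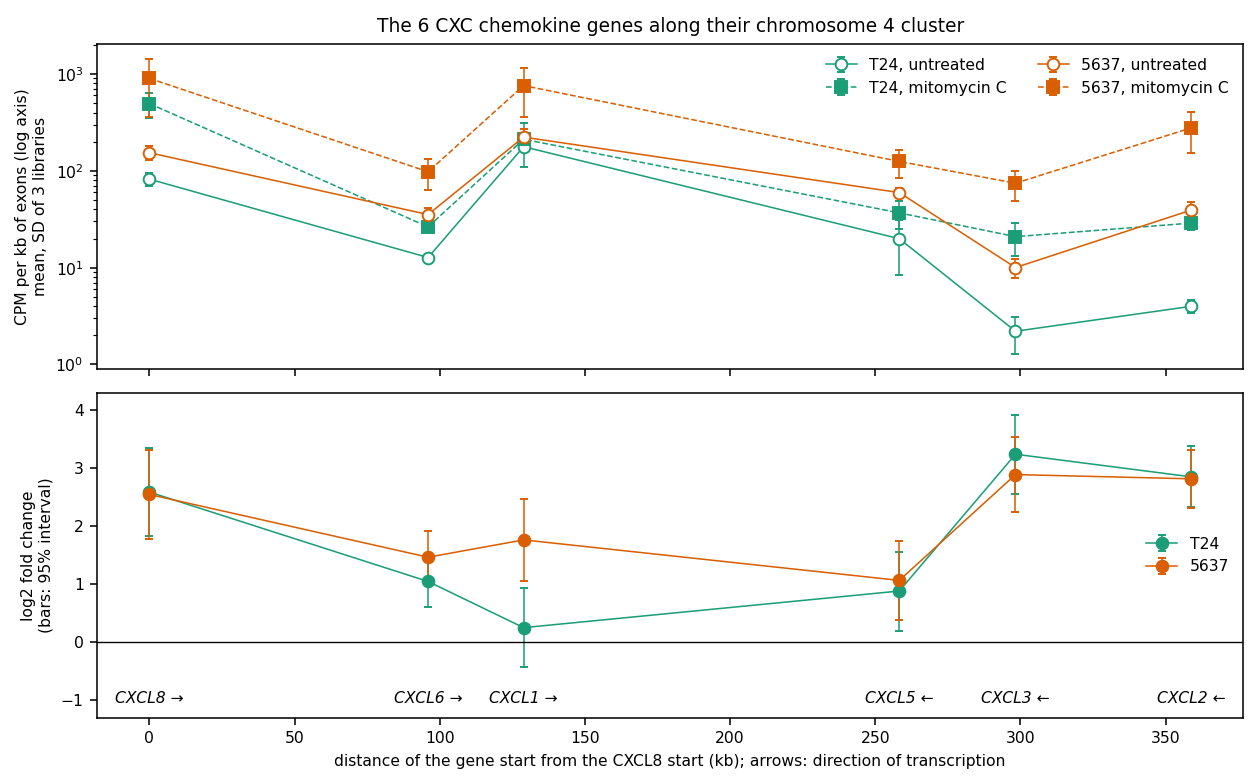
The 6 CXC genes by the distance of their start from that of CXCL8 (kb), with the mean CPM per kb of exons and SD of 3 libraries on a log axis (top) and the log2 fold change with its 95% interval (bottom) in T24 and 5637; connecting strokes only guide the eye. CXCL8, CXCL3 and CXCL2 have log2 fold changes between 2.55 and 3.24, and the genes between them 0.25 to 1.77.

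The unequal responses went with another mix of CXC ligands, measured as each gene's share of the summed CPM per kb of the 6. In untreated T24, CXCL1 made up 59.7% ± 5.61 (SD, n = 3) and CXCL8 27.4% ± 2.32. In treated T24 these were 24.9% ± 4.94 and 60.6% ± 2.96, so that the leading ligand was a different one. In 5637 CXCL1 went from 42.5% ± 2.35 to 33.8% ± 0.499 and CXCL8 from 29.5% ± 1.59 to 39.2% ± 3.38. The share of CXCL2 in 5637 went from 7.50% ± 0.729 to 12.8% ± 1.25. None of these 5 pairs of groups overlapped. With 3 libraries against 3, the two-sided exact permutation test cannot give a p under 0.1, the value each of them had (0.12 after adjustment over 12 tests). The sum itself was 299 ± 19.7 CPM per kb in untreated and 820 ± 245 in treated T24, and 521 ± 85.2 and 2236 ± 1152 in 5637.

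**Figure D4:**
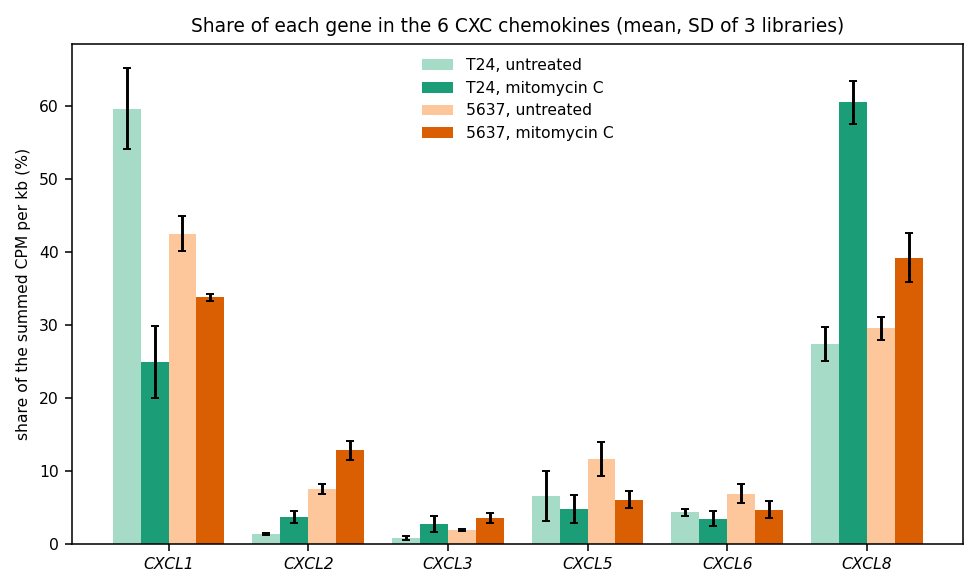
Share in percent of each of the 6 CXC genes in their summed CPM per kb of exons, as bars of the mean with the SD of 3 libraries, in untreated and treated T24 and 5637. CXCL1 is the highest bar in untreated T24 at 59.7% and CXCL8 in treated T24 at 60.6%.

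Of the CC chemokines, CCL20 (chromosome 2, 227805739 to 227817564) had one of the largest responses of T24. The 3 untreated T24 libraries held 2 counts each and the treated ones 85, 52 and 80. The rise was called (log2 5.39, SE 0.66, adjusted p = 3.871e-06), and the ratio of pooled rates was 44.3 (95% counting interval 20.1 to 122). Treated T24 still stood at 3.65 ± 1.16 CPM, below the 45.6 ± 19.0 CPM of untreated 5637. In 5637 CCL20 went from 67.5, 33.6 and 35.6 to 212, 67.4 and 110 CPM, with an overlap between treated replicate 3 and untreated replicate 1 (log2 1.51, SE 0.34, adjusted p = 0.00188). That call was lost when replicate 4 was left out of all groups (adjusted p = 0.0637). The response was larger in T24 than in 5637 by 3.88 on the log2 scale (SE 0.81, adjusted p = 0.00811), in a contrast where 3.47% of all genes were called. That difference was lost when replicate 4 was left out of all groups (adjusted p = 0.246). In TCC-SUP 7 counts stood against 15, a rate ratio of 1.96 (0.751 to 5.68), which was not called.

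CCL2 (chromosome 17, 34255218 to 34257203), the main monocyte attractant, followed another pattern across lines. It had 0 counts in all 6 libraries of 5637, the line that led for the other 9. The pooled floor of 3 counts in untreated 5637 is 0.0483 CPM. Mean CPM was 18.8 times this floor in untreated T24 and 31.6 times in untreated TCC-SUP. These ratios leave out the spread of the higher group, and the lowest untreated T24 library held 0.453 CPM. In T24 CCL2 held 28, 26 and 12 counts untreated and 42, 16 and 19 treated, which overlapped (log2 0.53, 95% interval -0.37 to 1.42, adjusted p = 0.399). In TCC-SUP the treated libraries, with 23, 18 and 13 counts, all lay below the untreated ones, with 35, 31 and 31. The TCC-SUP difference was not called (log2 -0.96, SE 0.42, adjusted p = 0.122; 19.2% of all genes were lower without overlap), though it was in a fit on that line alone (adjusted p = 0.0462). In that line the summed leukocyte markers also stood lower after treatment (18 to 25 CPM against 36.0 to 42.5), as did the fibroblast markers (4166 to 6271 against 8043 to 11517 CPM). Epithelial markers summed to 1146 to 2197.5 CPM treated and 1969 to 2708 untreated (median log2 fold change -0.61). Of 6 tested leukocyte markers 1 was called higher (9.57% of all genes) and 2 lower (11.1%), and their median log2 fold change was 0.34. The part of these markers in the CCL2 values was not tested. The libraries labelled CLS-439 held 7 untreated counts and 0 treated ones, a rate ratio of at most 0.726 by the upper 95% counting limit, and were not called (adjusted p = 0.404).

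CSF2 (chromosome 5, 132073790 to 132076170) resembled CCL20. Untreated T24 libraries held 8, 3 and 5 counts and treated ones 232, 108 and 230 (log2 5.44, SE 0.84, adjusted p = 6.976e-05), with a ratio of pooled rates of 43.7 (95% counting interval 26.7 to 76.9). In 5637 it rose from 70.0, 46.8 and 43.2 to 361, 106 and 167 CPM without overlap (log2 1.99, SE 0.53, adjusted p = 0.00796). That call was lost under DESeq2 (adjusted p = 0.0722) and when replicate 1 (0.0717) or replicate 4 (0.0748) was left out of all groups. Treated T24, at 9.65 ± 4.14 CPM, remained below untreated 5637, at 53.3 ± 14.6. In TCC-SUP the libraries were scattered, with 3, 35 and 13 counts untreated and 15, 7 and 92 treated, and the change was not called (log2 0.99, SE 0.79, adjusted p = 0.421). The T24 response exceeded that of TCC-SUP by 4.45 (SE 1.24, adjusted p = 0.0494; 3.79% of all genes were called), and the call was lost in 15 of 21 alternative settings. The T24 and 5637 responses differed by 3.46 (SE 1.04), which was not called (adjusted p = 0.0724). Without treated 5637 replicate 1 that difference was 4.11 (adjusted p = 0.0110).

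CSF3 (chromosome 17, 40015361 to 40017813) went the opposite way to the other called members in T24. Its untreated T24 libraries held 41.5, 33.5 and 37.5 CPM and its treated ones 20.7, 4.32 and 10.5. All treated libraries lay below all untreated ones (log2 -1.67, SE 0.49, adjusted p = 0.0132), where 16.6% of all genes did so. The call was lost under DESeq2 (adjusted p = 0.146), without treated replicate 3 (log2 -1.3, adjusted p = 0.0702) and without treated replicate 4 (0.0540). It was also lost when replicate 4 was left out of all groups (0.165). In 5637 CSF3 held 817, 407 and 404 CPM untreated and 2354, 565 and 856 treated. The groups overlapped and the change missed the threshold (log2 1.21, SE 0.46, adjusted p = 0.0522). It was called without untreated replicate 1 (log2 1.64, adjusted p = 0.0317), treated replicate 3 (1.56, 0.0170) or treated replicate 4 (1.43, 0.0471). Without treated replicate 1 it was 0.35 (adjusted p = 0.542).

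The responses of CSF3 in T24 and 5637 differed by -2.89 (SE 0.67, adjusted p = 0.0175). DESeq2 did not call this difference (adjusted p = 0.130), nor did a fit on the 2 lines alone (0.0711). It was also lost without treated T24 replicate 4 (0.0545), untreated 5637 replicate 3 (0.0630) or untreated 5637 replicate 4 (0.0568). Leaving replicate 4 out of all groups gave an adjusted p of 0.398. In TCC-SUP 4 counts stood against 18, of which 15 lay in treated replicate 3. The libraries labelled CLS-439 held 3 counts untreated and 4 treated.

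Treated 5637 replicate 1 was the highest treated library of that line for all 9 expressed members, which took 0.897% of its reads against 0.300% and 0.505% in replicates 3 and 4. Without it, 7 of 8 calls held in 5637, CXCL5 being lost. CXCL8 then rose by 1.94 (adjusted p = 1.932e-05), CXCL1 by 1.26 (0.00162) and CSF2 by 1.32 (0.0415) on the log2 scale, against 2.55, 1.77 and 1.99 with it.

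Between lines, the differences in response that held under every alternative tried were those of CXCL2 and CXCL3 in T24 and 5637 against the libraries labelled CLS-439. T24 minus CLS-439 was called for 3 members (10.1% of all genes), CXCL2 at 3.30 (SE 0.36), CXCL3 at 3.95 (SE 0.59) and CXCL8 at 2.36 (SE 0.64). 5637 minus CLS-439 was called for the same 3 genes (9.02% of all genes), at 3.27 (SE 0.35), 3.60 (SE 0.58) and 2.32 (SE 0.64). Both contrasts use the same CLS-439 libraries. Of 20 alternative settings, the CXCL8 difference was lost in 5 for T24 and in 8 for 5637. Both were lost when replicate 4 was left out of all groups (adjusted p = 0.224 and 0.249). So they were without untreated CLS-439 replicate 3 (0.103 and 0.119) or treated CLS-439 replicate 1 (0.0668 and 0.0738). TCC-SUP minus CLS-439 was called for CXCL2 alone (1.82, SE 0.45, adjusted p = 0.0311; 2.65% of all genes), and was lost without most single libraries of either line. Between 5637 and TCC-SUP 0 members were called by edgeR (2.7% of all genes), with 1 at an unadjusted p under 0.05 and 1, CXCL2, by DESeq2. The responses of T24 and 5637 differed by 0.03 for CXCL2 (95% interval -0.63 to 0.70) and by 0.04 for CXCL8 (-0.97 to 1.06), and neither was called.

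Across the 18 libraries of T24, 5637 and TCC-SUP, the log2 CPM of CXCL1, CXCL5 and CXCL6 tracked each other closest among the 10 (Pearson r 0.990 to 0.994). CSF2 tracked CCL20 (0.970) more than any CXC gene (0.602 to 0.871). CCL2 had negative values with all 9 others (-0.860 to -0.553). These points share their line and depth and describe differences between lines as much as responses. The 3 genes most like each member were taken from 12220 genes by the same measure. For CXCL8 they were MAP2K1 (r = 0.988), IRF5 (0.978) and CXCL6 (0.977). CXCL1 was nearest to TMBIM1 (0.994), RAB34 and CXCL6, CXCL5 to CXCL6 (0.994), CXCL1 and LAMB3, and CXCL6 to LAMB3 (0.995), CXCL5 and TFAP2C. NPC1 came first for both CXCL2 (0.980, then CHMP4C and ICAM2) and CXCL3 (0.975, then IL1B and COQ8A). IRAK2, a kinase of interleukin 1 receptor signalling, came first for CCL20 (0.985, then BIK and IPPK) and after CCL20 itself for CSF2 (0.969, then TNIP1). CSF3 was nearest to EPHX4 (0.984), VIM and DMKN, and CCL2 to PPOX (0.983), MAPK11 and ACCS.

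The surrounding NF-kB pathway also moved. Of 15 genes for NF-kB subunits, inhibitors and kinases, 13 rose in T24 (15.2% of all genes) and 0 fell (13.4%). In 5637, 7 rose (15.9%) and 1 fell (13.6%), and in TCC-SUP 10 rose (9.57%) and 1 fell (11.1%). In the libraries labelled CLS-439, 0 were called higher (0.298% of all genes) and 0 lower (0.322%). With so few calls over all genes, the 0 there says nothing particular about this list. The list's median log2 fold change was 1.5, 0.46, 0.65 and 0.17 in that order, against 0 over all genes. RELB, a subunit of the noncanonical arm, rose by 4.39 (SE 0.22) in T24, 0.87 (SE 0.19) in 5637 and 1.36 (SE 0.20) in TCC-SUP. TNFAIP3, which encodes the inhibitor A20, rose by 4.38, 1.34 and 1.45. NFKB2, the partner of RELB, rose by 2.89, 0.99 and 1.18. NFKBIZ, which encodes a nuclear cofactor, rose by 2.22, 1.63 and 1.10. NFKBIA, the classic inhibitor and NF-kB target, rose in T24 (1.85) and TCC-SUP (0.57) and had a log2 fold change of 0.20 in 5637 (adjusted p = 0.278). IKBKB, a kinase that activates the pathway, fell by 0.51 in 5637 and 0.50 in TCC-SUP.

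A list of cytokines, receptors and 1 antagonist of the signals that induce these chemokines had 11 tested genes. In T24 5 rose (15.2% of all genes) and 0 fell (13.4%), in 5637 4 rose (15.9%) and 2 fell (13.6%), and in TCC-SUP 2 rose (9.57%) and 1 fell (11.1%). Of the 4 in 5637, IL1RN encodes the antagonist of the interleukin 1 receptor (log2 0.83, SE 0.29, adjusted p = 0.0359). TNF rose in each of the 3 lines, by 3.44 (SE 0.32), 4.08 (SE 0.44) and 2.08 (SE 0.42). IL1A rose in T24 (2.88, SE 0.31) and had 0.08 in 5637 (adjusted p = 0.903), while IL1B rose by 2.18 in T24 and 0.82 in 5637. IL17RA, the receptor chain for interleukin 17, rose by 0.49, 0.66 and 1.01. TLR3, a sensor of double-stranded RNA, and IL18 fell in 5637 by 2.06 and 1.10. TNFRSF1A, the main TNF receptor, fell by 0.68 in TCC-SUP.

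Of 22 other chemokines, 8 were tested, and 3 rose in T24 (15.2% of all genes), 1 in 5637 (15.9%) and 2 in TCC-SUP (9.57%). CXCL16 rose in all 3 lines (0.83, 0.82 and 1.04). CCL5 rose in T24 (1.30, SE 0.31), and CCL3 was called there as well, on 0 untreated and 8 treated counts. CCL26 rose in TCC-SUP (1.67, SE 0.47). CSF1, the macrophage growth factor, rose in T24 (1.68, SE 0.17), where 15.2% of all genes were called higher. It was the 1 call among 3 tested growth factors of myeloid cells, too few to compare with that share. No receptor of the ligands was called in any line, and 3 of 9 were tested. Calls over all genes reached at most 15.9% higher and 13.6% lower (both 5637), so 0 of 3 says nothing particular about receptors. Mean CPM was at most 0.656 for CXCR2 and 0.712 for ACKR1 in any group. CSF2RB exceeded 1 CPM only in the libraries labelled CLS-439 (8.45 untreated and 9.81 treated).

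Of 9 regulators of the decay of AU-rich messengers, 2 rose and 2 fell in each of T24, 5637 and TCC-SUP. Over all genes the shares were 15.2% higher and 13.4% lower in T24, 15.9% and 13.6% in 5637, and 9.57% and 11.1% in TCC-SUP. The list's median lay between -0.07 and 0.01. HNRNPD (AUF1), a decay factor, fell in all 3 (by 1.11, 0.83 and 0.82). DUSP1, a phosphatase that restrains the p38 kinase, rose in all 3 (0.97, 1.81 and 1.35). ZC3H12A, the nuclease Regnase-1, rose in T24 (1.74, SE 0.19) and TCC-SUP (0.61, SE 0.19), and ELAVL1 (HuR), a stabiliser, fell in T24 (by 0.32) and 5637 (by 0.38). ZFP36L1 fell in TCC-SUP (by 0.52) and ZFP36 rose in 5637 (0.63).

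**Figure D5:**
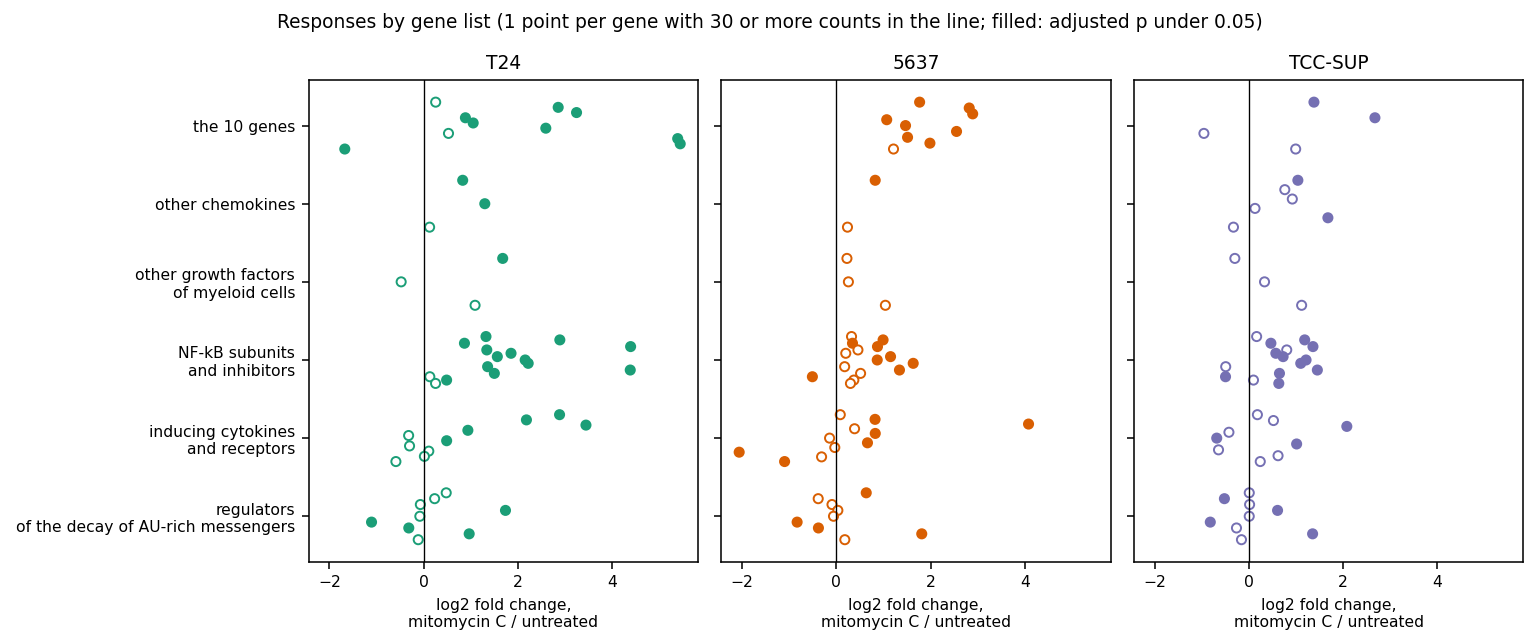
Log2 fold change after mitomycin C of the 10 genes and of the genes of 5 lists in T24, 5637 and TCC-SUP, 1 point per gene with 30 or more counts in the line, filled where the edgeR adjusted p is under 0.05. NF-kB genes lie mostly to the right of 0 in every line. In TCC-SUP only CXCL2, CXCL8, CCL2 and CSF2 of the 10 genes are drawn, and CXCL2 and CXCL8 are filled.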

How the data were processed

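The values deposited by the authors are raw counts, 1 column for each of the 24 libraries and 1 row per Ensembl gene. STAR 2.5.3a, featureCounts 1.6.2 and GRCh38 are named in the submitters' processing notes. Annotation release, strandedness of counting and handling of multimapping reads were not given in the sources used here. Counts of near-identical copies and of overlapping genes are therefore uncertain. Libraries were made with a stranded poly(A) kit, per the labels' protocols. Symbols, positions and exon lengths came from GENCODE release 29, which held 58216 of the 58381 IDs; the other 165 had 0.00717% of the reads.

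The test was edgeR 4.0.16 under R 4.3.3: filterByExpr by group (20820 genes, 99.94% of reads), TMM scaling, and a robust quasi-likelihood fit with 1 mean for each of 8 groups over 24 libraries (16 residual degrees of freedom, common dispersion 0.0317). The contrasts were MMC against untreated in each line, the 6 differences between the lines' responses and the 6 differences between untreated lines. The SE of a log2 fold change is its size over the square root of F, and 95% intervals use 16 degrees of freedom. All adjusted p values come from this test unless DESeq2 (1.42.0) is named. Library totals set the precision: at 13791428 to 28821665 reads, members with few counts have wide intervals. Intervals on ratios of pooled counts are exact binomial and cover counting error only, as does the floor of 3 counts. Within groups, pairs of libraries had a chi-square of 4.10 per gene or more, so none was treated as a duplicate.

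The 10 members and the gene lists were chosen with earlier results of these data known, so no list is independent evidence. All members were named with their values, and from each list up to 4 called genes with the largest change among those reaching 1 CPM. NFKBIA, IKBKB, IL1RN, IL17RA, IL18, TNFRSF1A, CCL3, ELAVL1 and ZFP36L1 were named in addition, after their values were seen. The genes most like each member were the 3 with the highest Pearson correlation of log2 CPM (2 as prior count) over 18 libraries, among genes reaching 5 CPM. Alternatives were other size factors, no filter, DESeq2, a replicate block, fits on fewer lines, and leaving out each library or replicate number.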

Additional observations from a re-analysis of the deposited data

Results flagged for a closer look

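Differences of response between 2 lines were called by edgeR for 10 combinations of gene and pair of lines, all on the log2 scale with their SE and adjusted p. Between T24 and 5637 (T24 minus 5637), CCL20 differed by 3.88 (SE 0.81, adjusted p = 0.008109) and CSF3 by -2.89 (SE 0.67, adjusted p = 0.01753). CCL20 had the larger rise in T24, and CSF3 fell in T24 while its value in 5637 was above 0 without passing the test. The T24 response of CSF2 exceeded that of TCC-SUP by 4.45 (SE 1.24, adjusted p = 0.0494).

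T24 minus the libraries labelled CLS-439 was 3.30 for CXCL2 (SE 0.36, adjusted p = 2.041e-06), 3.95 for CXCL3 (SE 0.59, adjusted p = 1.445e-04) and 2.36 for CXCL8 (SE 0.64, adjusted p = 0.02142). 5637 minus CLS-439 was 3.27 for CXCL2 (SE 0.35, adjusted p = 2.745e-06), 3.60 for CXCL3 (SE 0.58, adjusted p = 3.190e-04) and 2.32 for CXCL8 (SE 0.64, adjusted p = 0.02498). TCC-SUP minus CLS-439 was 1.82 for CXCL2 (SE 0.45, adjusted p = 0.0311). These 7 differences share the CLS-439 libraries, whose mitochondrial and pseudogene shares stand apart from the other lines, and the part of that in the differences was not tested.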

How the results depend on the processing

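No result reversed its direction where called. Of the counts of members recomputed under the alternatives, 267 stayed within 1.5 times the reported count and 61 did not. Of the single-gene values 1601 kept their side of the threshold, 76 lost and 48 gained a call. With no filter, the counts were 4 for TCC-SUP higher, 4 for T24 minus 5637, 4 for T24 minus TCC-SUP, 5 for T24 minus CLS-439, 1 for 5637 minus TCC-SUP and 3 for TCC-SUP minus CLS-439. With DESeq2 they were 0 for T24 lower, 1 for T24 minus 5637, 3 for T24 minus TCC-SUP, 6 for T24 minus CLS-439, 1 for 5637 minus TCC-SUP and 2 for TCC-SUP minus CLS-439. Fits on the lines of a contrast alone gave 1 for TCC-SUP lower, 0 for T24 minus TCC-SUP and 2 for TCC-SUP minus CLS-439. T24 minus TCC-SUP was also 0 with RLE size factors and without the CLS-439 libraries. The cause was not tested.

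Leaving out libraries gave 6 to 7 higher and 0 to 1 lower in T24, 6 to 9 higher and 0 lower in 5637, 0 to 2 higher and 0 to 1 lower in TCC-SUP, and 0 either way in CLS-439. Differences of response ranged over 0 to 3 (T24 minus 5637), 0 to 1 (T24 minus TCC-SUP), 2 to 4 (T24 minus CLS-439), 0 to 1 (5637 minus TCC-SUP), 2 to 4 (5637 minus CLS-439) and 0 to 2 (TCC-SUP minus CLS-439). Untreated differences ranged over 8 to 9 (T24 and 5637), 7 (T24 and TCC-SUP), 7 (T24 and CLS-439), 10 (5637 and TCC-SUP), 9 to 10 (5637 and CLS-439) and 3 to 6 (TCC-SUP and CLS-439).

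Same-numbered libraries of a line were checked for pairing over all tested genes. No line had every correlation of deviations above 0.1, the cut used here, so the numbers were not taken as pairs. The correlations were 0.248, -0.0764 and 0.258 in T24, and 0.171, 0.0739 and 0.203 in 5637. In TCC-SUP they were 0.0965, -0.00945 and -0.0745, and in CLS-439 0.297, 0.169 and 0.0807. All were above 0 in 5637 and CLS-439, so these values do not settle whether those libraries were paired. The replicate block gave 3 for T24 minus TCC-SUP, 1 for 5637 minus TCC-SUP and 2 for TCC-SUP minus CLS-439, and called CSF3 in 5637 (log2 1.03, adjusted p = 0.0243) and the CXCL1 difference of T24 minus 5637 (adjusted p = 0.0423). At library sizes like those of 5637, most members had few counts in TCC-SUP, which limits the changes that could be called there.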
